A study of Equus caballus with 23 samples.

Results

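The proteasome genes described here are the genes whose symbol begins with PSMA, PSMB, PSMC, PSMD, PSME, PSMF or PSMG in the authors' tables, which gave 41 of the 26991 genes counted in gluteus medius muscle of Arabian horses. Of these, 40 encode proteasome subunits, activators, the inhibitor or assembly chaperones. The remaining one, PSMC3IP, a cofactor of meiotic recombination, shares only the letters of its symbol with the others and is kept because the rule takes it. All 41 genes passed the filter on low counts, so the counts below run over every member. The symbols came from tables that list part of the genome, and PSMA1, PSMA2, PSMD4, PSME3 and PSMG2 among others were not analysed here.

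The proteasome is the protease complex that degrades proteins tagged with ubiquitin. Its core particle is a barrel whose outer rings of alpha subunits form the gate and whose inner rings of beta subunits hold the active sites. A regulatory particle sits on the gate: ATPases of its base unfold the substrate, and its lid removes the ubiquitin chain. In skeletal muscle this pathway is known for the turnover of contractile proteins, both in wasting and in the remodelling that follows exercise.

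Muscle was taken by needle biopsy and its RNA was sequenced in 23 libraries, labelled m1 to m23, at 3 stages of race training. T0 is untrained horses of 2.5 years (5 libraries, 3 from males and 2 from females), T1 is horses of 3 years at the close of the gallop training that precedes racing (8 libraries, 4 from males and 4 from females), and T2 is horses of 3 years when the racing season had ended (10 libraries, 7 from males and 3 from females). Horses of T1 and T2 were thus trained and older than those of T0, so training and age cannot be told apart in comparisons with T0. No label tells if the same horse gave muscle at several stages, so the p-values below reflect only how far these 23 libraries spread.

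Total counts ran between 12185608 and 23641809 per library, and the proteasome genes together held between 20565 and 50215 counts of each library. As to the muscle label, all 15 slow fibre contractile genes and 13 of 15 fast fibre contractile genes were listed and tested. Library m3 of T1 stood apart: its mean deviation of the 41 genes was 0.404 on the log2 CPM scale, and the next T1 library was at -0.00232. Library m3 also had the smallest scaling factor of T1 (0.66) and the highest slow minus fast fibre score of all libraries (3.48). Library m12 of T0 had a mean deviation of 0.00188, whereas the next T0 library was at -0.19. In m12 mitochondrially encoded genes took 54.9% of all counts, against 45.7% in the next T0 library. Counts of genes called are therefore given with and without these libraries.

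**Figure D1:**
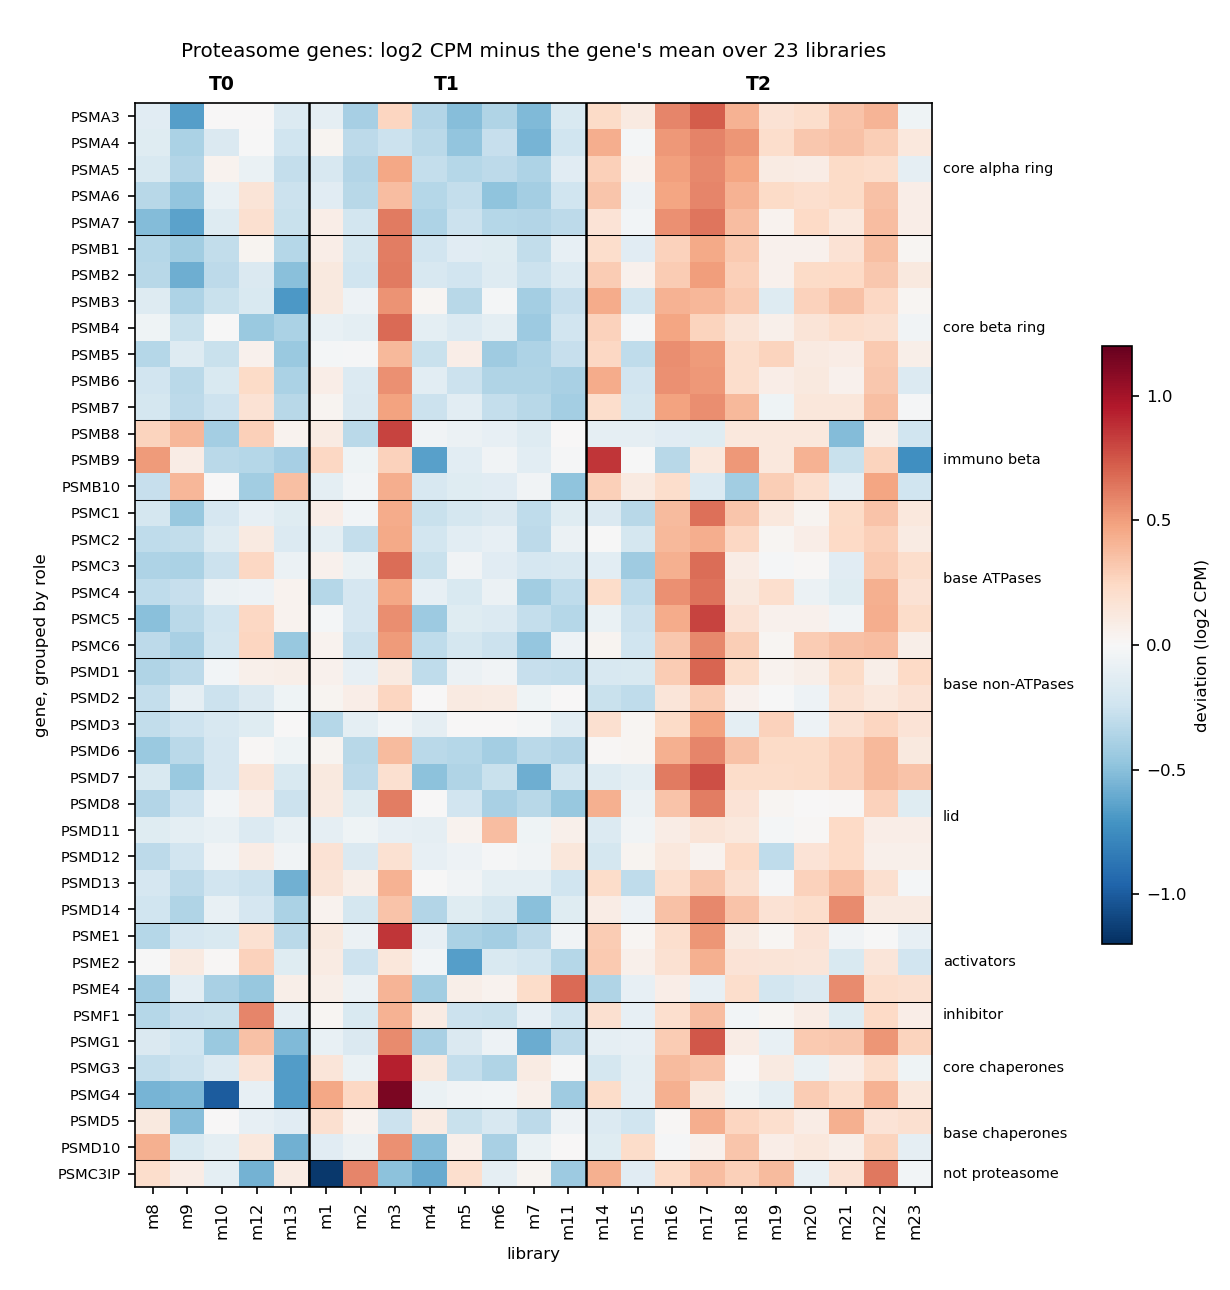
Each row is one of the 41 genes, grouped by role, and each column one library, grouped by time point (T0, T1 and T2). Colour gives the gene's log2 CPM in that library minus its mean over the 23 libraries. The T2 block is mostly above 0 in the core rings, the base ATPases and the lid, the immunoproteasome rows are mixed at every time point, and m3 is the dark column within T1.

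Proteasome genes were higher at the end of the racing season than after the gallop phase, with all 5 alpha ring genes, 4 of 8 lid genes and the activator PSME2 past the test. At T2 against T1, 10 of the 41 genes rose and 0 fell (edgeR's quasi-likelihood test with Benjamini-Hochberg adjustment over 11545 genes). That is 24.4% of the members, whereas 12.6% of all genes tested rose and 15.1% fell. The median log2 fold change was 0.26 over the members and -0.01 over all genes tested, and 36 of the 41 members had a positive value. Without m3 the count was 26 of 41, and without m15, the T2 library with the lowest mean deviation (-0.108), it was 19 of 41. Of all genes tested, 16.1% rose without m3 and 13.4% without m15. No member was called lower under any of the 36 alternatives, a set that includes leaving out each library.

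The alpha ring genes, whose products form the outer gate of the core particle, included the 3 smallest p-values among the 41 members in this comparison (PSMA4, PSMA3 and PSMA6). PSMA4 stood at 33.7, 37.2, 38.9, 39.6 and 43.7 CPM (counts relative to the TMM-scaled library size) in the T0 libraries, between 29.7 and 44.7 with a median of 35.7 CPM in T1, and between 43.1 and 66.1 with a median of 55.6 CPM in T2. All T2 libraries except m15 lay above the highest T1 library, m1. Its log2 fold change was 0.64 ± 0.09 (SE) at T2 over T1, with an adjusted p of 3.24e-05 in edgeR, and -0.11 ± 0.11 at T1 over T0, with an adjusted p of 0.624. CPM values are not divided by gene length, so levels are compared between libraries and not between genes.

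PSMA3 had 37.1, 52.3, 53.3, 59.0 and 59.0 CPM in T0, 40.7 to 70.1 with a median of 45.9 CPM in T1, and 56.8 to 97.0 with a median of 71.8 CPM in T2. The T1 maximum was m3, and the other T1 libraries reached 54.5 CPM, below every T2 library. The edgeR log2 fold change of PSMA3 at T2 over T1 was 0.58 ± 0.12 (SE), adjusted p 0.000981. PSMA6 had 52.2, 57.5, 60.7, 68.2 and 81.1 CPM in T0, 52.0 to 93.9 with a median of 58.7 CPM in T1, and 69.5 to 108.7 with a median of 88.4 CPM in T2. Here too m3 was the only T1 library inside the range of T2. PSMA6 rose by 0.51 ± 0.12 (SE, log2) at T2 over T1, with an edgeR adjusted p of 0.00227.

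PSMA5 had 31.0, 32.3, 34.7, 37.2 and 40.7 CPM in T0, 30.5 to 54.4 with a median of 31.99 CPM in T1, and 36.6 to 58.8 with a median of 46.0 CPM in T2. Its T1 maximum, m3, was inside the T2 range, while the other T1 libraries ended at 35.9 CPM. PSMA5 rose by 0.42 ± 0.11 (SE, log2) at T2 over T1, edgeR adjusted p 0.00803. PSMA7 had 63.0, 68.8, 81.7, 88.2 and 112.6 CPM in T0, 76.0 to 151.8 with a median of 80.6 CPM in T1, and 96.4 to 154.2 with a median of 113.3 CPM in T2. Libraries m1 and m3 of T1 overlapped T2. PSMA7 was the weakest of the alpha ring calls at T2 over T1, 0.38 ± 0.14 (SE, log2), edgeR adjusted p 0.0472, and was lost under 16 of the 36 alternatives. Those 16 included leaving out any of m13, m2, m4, m5, m6, m7, m11, m14, m16, m17, m18, m20 or m22, with adjusted p-values up to 0.0924.

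At T2 over T0 the alpha ring also rose in all 5 genes, with log2 fold changes between 0.42 (PSMA5) and 0.53 (PSMA4). PSMA4 was called in every alternative of this comparison as well, with an edgeR adjusted p of 0.00444 in the fit of all libraries. PSMA3 lost the T2 over T0 call without m9, PSMA6 without m9 or m13, PSMA5 without m8, m9, m13, m16, m17 or m18, and PSMA7 without m8, m9, m13, m16, m17 or m22. The T1 over T0 values of the alpha ring lay between -0.11 and 0.14 and none passed the test. The ring's share of all counts on the 40 proteasome genes, a quantity that needs no scaling between libraries, averaged 14.3% ± 1.28 at T0, 13% ± 0.584 at T1 and 15.5% ± 0.843 at T2 (SD, n = 5, 8 and 10). The ranges were 12.3% to 15.5% at T0, 12.3% to 13.9% at T1 and 13.9% to 16.6% at T2. The T1 maximum (m3) and the T2 minimum (m23) were thus both at 13.9%. As part of a whole, this share also depends on the counts of the other roles.

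**Figure D2:**
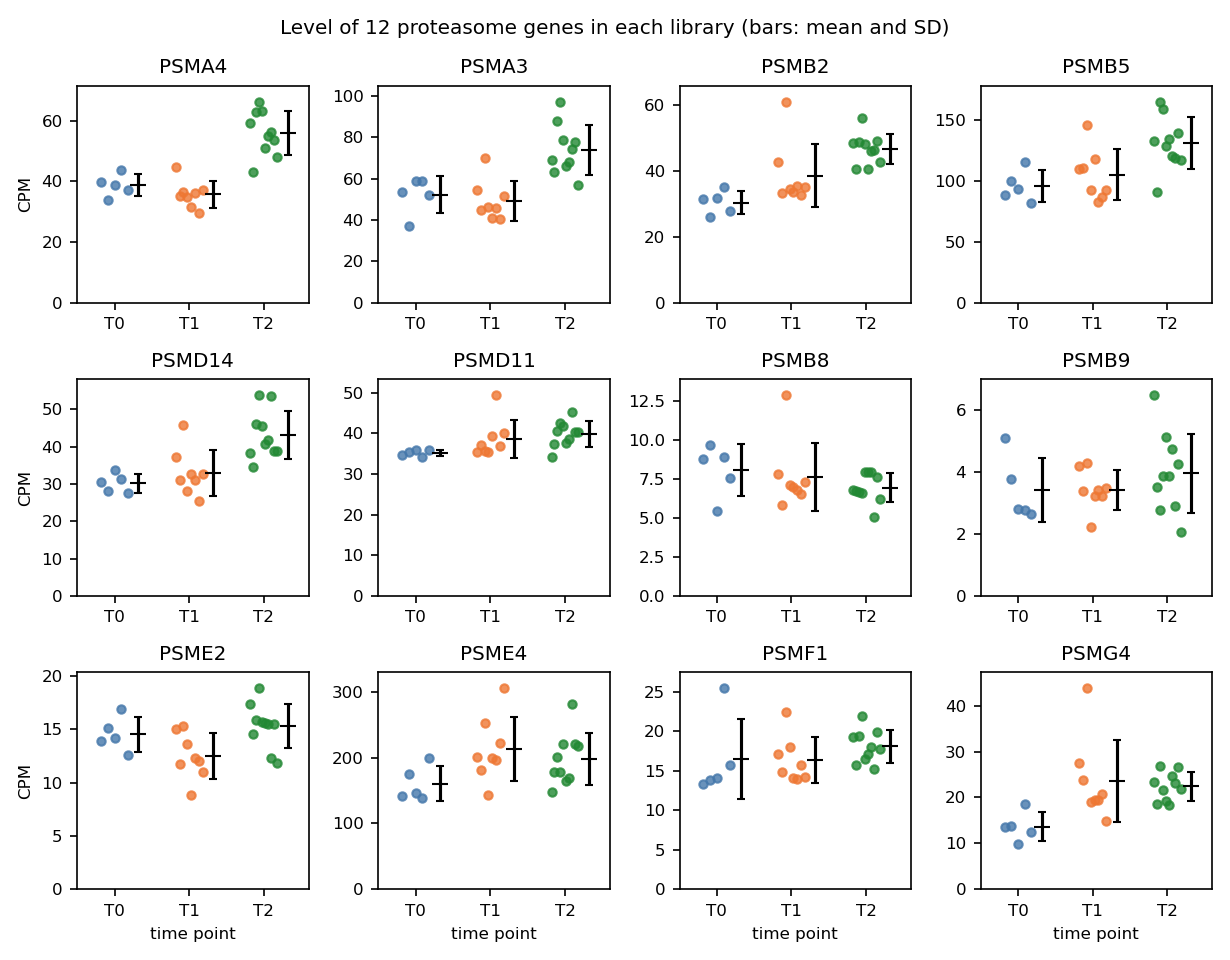
CPM of 12 of the genes in each library (points) at T0, T1 and T2, with the mean and SD as bars; every axis starts at 0. PSMA4 at T2 lies above T1 in 9 of 10 libraries, PSMB2 at T2 lies above all T0 libraries, PSMB8 and PSMB9 overlap at all time points, and m3 is the single high T1 point of PSMB2, PSMB8 and PSMG4.

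The beta ring, which carries the active sites, was higher at T2 than at T0 in 5 of 7 genes (PSMB1, PSMB2, PSMB3, PSMB4 and PSMB5). At T2 over T1 none of the 7 passed the test, with log2 fold changes between 0.21 and 0.32 and adjusted p-values between 0.0512 and 0.16. Without m3 all 7 rose at T2 over T1, beside 16.1% of all genes tested, and their median was 0.39 on the log2 scale. Whether the alpha and beta rings differ from each other was not tested.

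PSMB2, a beta subunit without an active site, had 26.2, 27.8, 31.4, 31.7 and 35.1 CPM in T0, 32.9 to 61.1 with a median of 34.9 CPM in T1, and 40.8 to 56.1 with a median of 47.4 CPM in T2. All 10 T2 libraries were above all 5 T0 libraries. PSMB2 rose by 0.62 ± 0.13 (SE, log2) at T2 over T0, edgeR adjusted p 0.00487, and was called in every alternative. PSMB5, the subunit with chymotrypsin-like activity, had 82.1, 88.2, 93.1, 100.2 and 115.6 CPM in T0, 82.9 to 146.1 with a median of 101.4 CPM in T1, and 90.5 to 164.7 with a median of 131 CPM in T2. Only m15 of T2 fell below the highest T0 library, m12. PSMB5 rose by 0.45 ± 0.14 (SE, log2) at T2 over T0, edgeR adjusted p 0.0329, and lost the call without any one of m8, m9, m10, m13, m16, m17 or m22, with adjusted p-values of 0.0501 to 0.0941.

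PSMB3, another structural beta subunit, had 16.1, 20.2, 21.7, 23 and 23.5 CPM in T0, 19.7 to 38.2 with a median of 25.4 CPM in T1, and 22.4 to 35.6 with a median of 32.1 CPM in T2. Libraries m15 and m19 of T2 lay below the highest T0 library. PSMB3 averaged 30.7 ± 4.82 CPM at T2 and 20.9 ± 2.95 CPM at T0 (SD, n = 10 and 5). Its log2 fold change was 0.55 ± 0.14 (SE), edgeR adjusted p 0.0135, and 0.47 with an adjusted p of 0.0514 without m13. PSMB1 had 42.5, 44.6, 44.6, 46.3 and 57.8 CPM in T0, 46.1 to 87.0 with a median of 51.4 CPM in T1, and 51.5 to 77.8 with a median of 64.7 CPM in T2. Its T0 maximum, m12, overlapped T2, and the other T0 libraries did not. PSMB1 averaged 64.6 ± 8.09 CPM at T2 and 47.1 ± 6.1 CPM at T0, a log2 fold change of 0.46 ± 0.13 with an edgeR adjusted p of 0.0227. Its call was lost without m9 (adjusted p 0.0594) or without m13 (adjusted p 0.06). PSMB4 rose by 0.40 ± 0.14 (SE, log2, edgeR adjusted p 0.0452), just inside the threshold, and was lost under 18 alternatives. Among these were the fits without m1, m2, m4, m5, m6, m9, m12, m13, m14, m16, m17, m18, m20, m21 or m22. The catalytic subunits PSMB6 and PSMB7, with caspase-like and trypsin-like activity, had 0.38 ± 0.16 (adjusted p 0.0978) and 0.39 ± 0.15 (adjusted p 0.0642) in edgeR at T2 over T0.

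The immunoproteasome subunits, which replace the catalytic beta subunits in cells exposed to interferon, did not pass the test in any comparison (0 of 3 genes in each). A difference from the beta ring was not tested. PSMB8, the counterpart of PSMB5, had 5.47, 7.54, 8.81, 8.90 and 9.69 CPM in T0, 5.81 to 12.9 with a median of 7.03 CPM in T1, and 5.06 to 7.98 with a median of 6.77 CPM in T2. The 3 ranges overlapped, and m3 was the highest library. PSMB8 was the only member with a negative value at T2 over T0, at -0.21 ± 0.16 (SE, log2, edgeR adjusted p 0.352). PSMB9, the counterpart of PSMB6, had 2.64, 2.76, 2.79, 3.75 and 5.08 CPM in T0, 2.20 to 4.29 with a median of 3.39 CPM in T1, and 2.06 to 6.46 with a median of 3.85 CPM in T2. PSMB10, the counterpart of PSMB7, had 5.41, 5.98, 7.31, 9.39 and 9.64 CPM in T0, 5.18 to 9.90 with a median of 6.63 CPM in T1, and 5.41 to 10.2 with a median of 8.11 CPM in T2. Both spread widely within each time point, and their log2 fold changes lay between -0.14 and 0.22.

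Counts of PSMB8 per 100 counts of PSMB5 were compared between libraries as an index, which is not divided by gene length and so does not give the mix of the subunits. They averaged 8.48 ± 1.7 at T0, 7.3 ± 1.2 at T1 and 5.45 ± 1.13 at T2 (SD, n = 5, 8 and 10), with ranges of 5.88 to 9.98, 5.24 to 8.81 and 4.04 to 7.47. For PSMB9 over PSMB6 the means were 5.21 ± 1.87, 4.97 ± 0.96 and 4.56 ± 1.3, and for PSMB10 over PSMB7 they were 8.7 ± 3.08, 7.38 ± 0.749 and 6.73 ± 1.74, at T0, T1 and T2. The ranges overlapped in all of these, and the ratios are given as descriptions without a test. Of the pair PSMB8 and PSMB5 only PSMB5 passed the test at T2 over T0 (0.45, beside -0.21 for PSMB8). In bulk muscle, a change in the number of cells that make a gene and a change in its RNA per cell cannot be told apart.

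Leukocyte markers, from cells known for high immunoproteasome levels, were looked at beside these genes. Of 17 listed, 5 had an identifier (PTPRC, CD68, CSF1R, CD14 and LYZ), and their summed level was 7.63 to 16.1 CPM at T0, 6.75 to 20.3 CPM at T1 and 5.44 to 17.7 CPM at T2. PTPRC and CSF1R fell at T2 against T1, by 1.10 ± 0.36 and by 0.77 ± 0.28 on the log2 scale (SE, edgeR adjusted p 0.0262 and 0.0404). That is 40% of the 5 markers, whereas 15.1% of all genes tested fell. The other 3 did not pass, with 0.23 ± 0.16 for CD68, 0.18 ± 0.23 for CD14 and -0.18 ± 0.44 for LYZ, so that the list's median was -0.18. Their part in the immunoproteasome values was not tested.

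**Figure D3:**
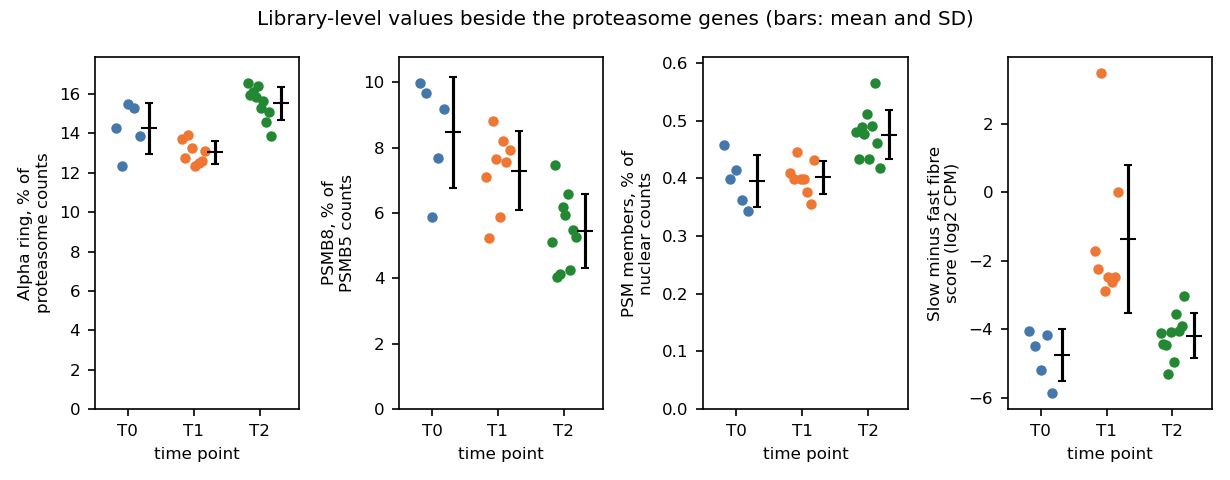
Values per library at T0, T1 and T2, with mean and SD as bars: the share of alpha ring counts among all proteasome counts, PSMB8 counts as a percentage of PSMB5 counts, the share of the 41 genes in all counts of nuclear genes, and the slow minus fast fibre score. The first and the third are highest at T2, with means of 15.5% and 0.476%, PSMB8 over PSMB5 is lowest there, and the fibre score is highest at T1.

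Of the 6 ATPases in the base of the regulatory particle, none passed at T2 over T1 and 2 rose at T2 over T0, PSMC1 by 0.42 ± 0.14 and PSMC6 by 0.43 ± 0.15 (SE, log2, edgeR adjusted p 0.0443 and 0.0468). Those calls were lost under 15 and 19 of the 36 alternatives. Both were lost without m8, m9, m10, m13, m2, m16, m17, m18, m21 or m22, and PSMC6 also without m1, m4, m5, m6 or m20. All 6 ATPases had positive values at T2 over T0, between 0.28 (PSMC3) and 0.43. PSMC4 had 28.3, 28.9, 33.5, 33.6 and 36.1 CPM in T0, 26.2 to 48.4 with a median of 30.6 CPM in T1, and 28.3 to 55.3 with a median of 39.9 CPM in T2. Its ranges overlapped throughout, and its log2 fold change at T2 over T1 was 0.33 ± 0.13 (SE, edgeR adjusted p 0.0528). Without m3, 5 of 6 ATPases rose at T2 over T1, all but PSMC3, beside 16.1% of all genes tested. The scaffold subunits PSMD1 and PSMD2, which bind ubiquitin receptors and shuttle proteins, had 0.27 ± 0.13 and 0.22 ± 0.10 at T2 over T0, with adjusted p-values of 0.143 and 0.147.

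The lid rose in 4 of 8 genes at T2 over T1 (PSMD3, PSMD6, PSMD7 and PSMD14) and in those 4 and PSMD13 at T2 over T0. PSMD14, the deubiquitinase of the lid, had 27.6, 28.1, 30.5, 31.3 and 33.9 CPM in T0, 25.5 to 45.8 with a median of 31.9 CPM in T1, and 34.6 to 53.8 with a median of 41.3 CPM in T2. Every T2 library was above every T0 library. Its log2 fold change was 0.39 ± 0.11 at T2 over T1 and 0.51 ± 0.12 at T2 over T0 (SE, edgeR adjusted p 0.00818 and 0.00922). PSMD7, the partner of PSMD14 in the lid, had 60.0, 71.1, 71.8, 72.0 and 90.4 CPM in T0, 54.5 to 92.9 with a median of 66.6 CPM in T1, and 73.5 to 139.1 with a median of 97.5 CPM in T2. PSMD7 overlapped between all time points and rose by 0.53 ± 0.13 at T2 over T1 (SE, log2, edgeR adjusted p 0.0038). At T2 over T0 it rose by 0.47 ± 0.15 (adjusted p 0.0356), a call lost without m8, m9, m10, m13, m16, m17 or m22.

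PSMD6, a scaffold subunit of the lid, had 33.6, 36.6, 39.7, 44.0 and 46.2 CPM in T0, 34.5 to 59.7 with a median of 36.4 CPM in T1, and 46.2 to 68.5 with a median of 54.8 CPM in T2. The lowest T2 library, m14, and the highest T0 library, m12, differed by less than 0.1 CPM. PSMD6 rose by 0.46 ± 0.11 at T2 over T1 and by 0.47 ± 0.13 at T2 over T0 (SE, log2, edgeR adjusted p 0.00309 and 0.0167), and both calls were present in every alternative. PSMD3, another scaffold subunit, had 37.8, 38.9, 40.5, 41.9 and 46.5 CPM in T0, 36.4 to 46.6 with a median of 44.1 CPM in T1, and 42.6 to 64.6 with a median of 52.7 CPM in T2. Libraries m18 and m20 of T2 lay inside the ranges of T0 and T1. PSMD3 averaged 41.1 ± 3.37 CPM at T0, 43.5 ± 3.34 CPM at T1 and 52.2 ± 6.34 CPM at T2 (SD, n = 5, 8 and 10). PSMD3 rose by 0.26 ± 0.08 at T2 over T1 and by 0.34 ± 0.10 at T2 over T0 (SE, log2, edgeR adjusted p 0.0199 and 0.0195). With the fibre score in the fit the first of these was 0.20 with an adjusted p of 0.208.

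PSMD13 had 75.5, 90.8, 94.3, 96.2 and 98.04 CPM in T0, 95.2 to 150.4 with a median of 110.6 CPM in T1, and 91.2 to 145.7 with a median of 129.3 CPM in T2. PSMD13 averaged 125.5 ± 16.5 CPM at T2 and 91.0 ± 9.04 CPM at T0 (SD, n = 10 and 5), a log2 fold change of 0.46 ± 0.12 (SE, edgeR adjusted p 0.0129). Only m15 of T2, at 91.2 CPM, was inside the T0 range. PSMD13 had 0.33 ± 0.12 at T1 over T0 and 0.13 ± 0.10 at T2 over T1 (SE, log2, edgeR adjusted p 0.101 and 0.356). With the total of nuclear counts as the only scaling, its T2 over T0 value was 0.34 with an adjusted p of 0.0962. PSMD11, a lid subunit known in human stem cells for promoting assembly of the regulatory particle, did not pass in any comparison. It had 34.1, 34.7, 35.3, 35.9 and 36.0 CPM in T0, 35.4 to 49.4 with a median of 36.9 CPM in T1, and 34.1 to 45.3 with a median of 40.4 CPM in T2. PSMD11 changed by 0.04 ± 0.08 at T2 over T1 and 0.18 ± 0.09 at T2 over T0 (SE, log2, edgeR adjusted p 0.699 and 0.159), and PSMD12 by 0.04 ± 0.09 and 0.16 ± 0.10 (adjusted p 0.767 and 0.278). PSMD8, the remaining lid gene, had 0.25 ± 0.13 and 0.34 ± 0.15 in the same comparisons (adjusted p 0.158 and 0.125).

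**Figure D4:**
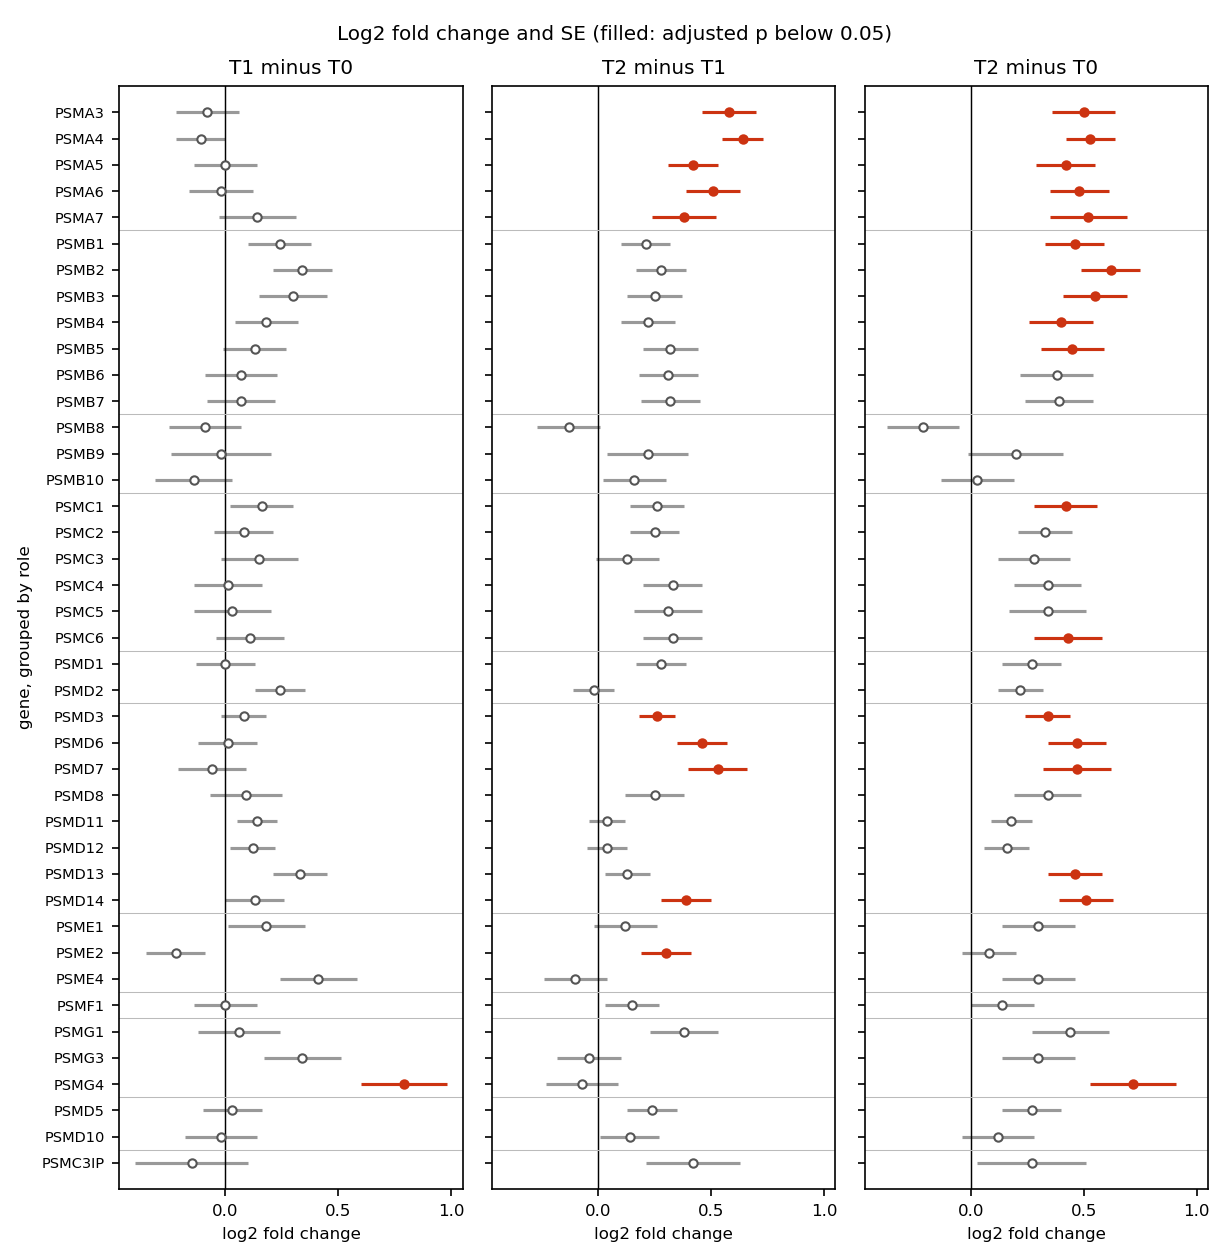
Log2 fold change with its SE for each of the 41 genes, grouped by role, in the comparisons T1 minus T0, T2 minus T1 and T2 minus T0; filled points passed an adjusted p of 0.05. In the first panel only PSMG4 is filled, in the second the 5 alpha ring points are filled and lie between 0.38 and 0.64, and in the third PSMB8 is the only point left of 0.

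Activators open the gate of the core particle without the regulatory particle. PSME1 and PSME2 form one activator ring together. PSME2 had 12.6, 13.9, 14.2, 15.1 and 16.96 CPM in T0, 8.82 to 15.3 with a median of 12.2 CPM in T1, and 11.9 to 18.8 with a median of 15.6 CPM in T2. It rose by 0.30 ± 0.11 at T2 over T1 (SE, log2, edgeR adjusted p 0.0394), and its T2 over T0 value was 0.08 ± 0.12 (adjusted p 0.696). The PSME2 call was lost under 15 alternatives, 11 of which left out a single library (m2, m5, m6, m7, m11, m14, m16, m17, m18, m19 or m22) and gave adjusted p-values of 0.0522 to 0.092. PSME1 had 15.4, 15.6, 17, 17.2 and 22.2 CPM in T0, 14.7 to 35.6 with a median of 18.4 CPM in T1, and 18.3 to 28.3 with a median of 20.5 CPM in T2. Library m3 held the PSME1 maximum, and no comparison passed with all libraries (T2 over T1 0.12 ± 0.14, edgeR adjusted p 0.531). Without m3 PSME1 rose at T2 over T1, by 0.29 with an adjusted p of 0.0262.

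PSME4, a large single-chain activator, had 139.2, 142.1, 145.9, 174.8 and 199.8 CPM in T0, 142.6 to 304.9 with a median of 200.1 CPM in T1, and 148.1 to 282 with a median of 189.4 CPM in T2. Its ranges overlapped at all time points, and its log2 fold change was 0.41 ± 0.17 at T1 over T0 and -0.10 ± 0.14 at T2 over T1 (SE, edgeR adjusted p 0.14 and 0.605). PSMF1, an inhibitor of the core particle in vitro, had 13.3, 13.9, 14.1, 15.7 and 25.4 CPM in T0, 14.01 to 22.5 with a median of 15.3 CPM in T1, and 15.2 to 21.9 with a median of 17.9 CPM in T2. The high T0 value was m12 and the high T1 value m3. With all libraries PSMF1 did not pass in any comparison, with log2 fold changes of 0.15 ± 0.12 at T2 over T1 and 0.14 ± 0.14 at T2 over T0 (SE, edgeR adjusted p 0.372 and 0.495). Without m3 and m12 PSMF1 was called in both, at 0.22 and 0.36.

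PSMG4 was the only member called after the gallop phase. Its product pairs with that of PSMG3 as a chaperone that helps the alpha ring assemble. At T1 against T0, 1 of the 41 genes rose (2.44%) and 0 fell, whereas 3.57% of all genes tested rose and 3.34% fell. The members' median log2 fold change in this comparison was 0.08, and 28 of 41 values were positive. This median was -0.01 without m3, -0.03 with nuclear totals as the scaling and -0.19 with the fibre score in the fit, so its sign was not stable. PSMG4 had 9.94, 12.5, 13.6, 13.7 and 18.7 CPM in T0, 14.8 to 43.8 with a median of 20.2 CPM in T1, and 18.4 to 26.8 with a median of 22.5 CPM in T2. Only m12 of T0 reached into the T1 range, and m3 was far above all other libraries. The log2 fold change of PSMG4 was 0.79 ± 0.19 at T1 over T0 and 0.72 ± 0.19 at T2 over T0 (SE, edgeR adjusted p 0.0154 and 0.0133). At T2 over T1 it was -0.07 ± 0.16 (adjusted p 0.777). Without m10, the T0 library with the lowest value, the T1 over T0 value was 0.70 with an adjusted p of 0.0563, so that no member was called. With the fibre score in the fit it was 0.24 with an adjusted p of 0.688.

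The other chaperones did not pass with all libraries in the fit. PSMG1, which acts in alpha ring assembly with the product of PSMG2, had 6.75, 7.16, 8.26, 8.64 and 12.5 CPM in T0, 6.42 to 14.5 with a median of 8.66 CPM in T1, and 9.06 to 16.5 with a median of 11.9 CPM in T2. Among the members that did not pass at T2 over T0 PSMG1 had the highest value, 0.44 ± 0.17 (SE, log2, edgeR adjusted p 0.084). Without m3 PSMG1 rose by 0.50 at T2 over T1 and by 0.44 at T2 over T0 (adjusted p 0.00632 and 0.0382), and without m3 and m12 both PSMG1 and PSMG3 were called at T2 over T0. PSMG3 had 0.34 ± 0.17 at T1 over T0 (adjusted p 0.24) and 0.30 ± 0.16 at T2 over T0 (adjusted p 0.206). The base chaperones PSMD5 and PSMD10 had 0.27 ± 0.13 and 0.12 ± 0.16 at T2 over T0 (adjusted p 0.149 and 0.62). PSMC3IP, the member outside the complex, was low at 0.453 to 1.85 CPM in all libraries and passed no comparison (T2 over T1 0.42 ± 0.21, edgeR adjusted p 0.134).

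Over the whole of training, 18 of 41 genes rose at T2 against T0 (43.9%) and 0 fell, whereas 6.73% of all genes tested rose and 9.3% fell. The median log2 fold change was 0.34 over the members and -0.03 over all genes tested, and 40 of 41 values were positive. By role these were 5 of 5 alpha ring, 5 of 7 beta ring, 2 of 6 ATPase, 5 of 8 lid and 1 of 3 core chaperone genes, and none of the immunoproteasome, scaffold, activator, inhibitor or base chaperone genes. Leaving out m9 or m13 of T0 gave 8 genes, and leaving out m16 or m17 of T2 gave 11. Of all genes tested, 3.59% rose without m9, 2.62% without m13, 4.83% without m16 and 4.52% without m17. Without m3 and m12 the count was 28, beside 13% of all genes tested. The share of all genes that rose thus moved in the same direction as the member count in these fits. PSMA4, PSMB2, PSMD6 and PSMG4 were called in every alternative. The comparison shares its T2 libraries with T2 against T1 and its T0 libraries with T1 against T0, so the 3 counts are not independent.

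Scaling bore on these counts. Within each time point the library with the smallest TMM scaling factor had the highest mean deviation of the members: m12 of T0 (0.749), m3 of T1 (0.66) and m17 of T2 (0.802). With the total of nuclear counts as the only scaling, 19 members rose at T2 over T1 and 8 at T2 over T0, and 0 fell in both. Of all genes tested, 10.9% and 1.74% rose. The 8 members were PSMA3, PSMA4, PSMA6, PSMA7, PSMB1, PSMB2, PSMD6 and PSMG4, so only 1 of 8 lid genes kept its call. That scaling moved the median of all genes to -0.15 at T2 over T0 and to -0.13 at T1 over T0. Of all calls, 19.7% were then higher at T2 over T0, against 42.0% with TMM, and 30.2% were higher at T1 over T0, against 51.6% with TMM. The members' median remained above that of all genes, at 0.24 against -0.15 for T2 over T0 and at 0.26 against -0.01 for T2 over T1. The 41 genes together held 0.395% ± 0.0451 of nuclear counts at T0, 0.402% ± 0.0283 at T1 and 0.476% ± 0.0432 at T2 (SD, n = 5, 8 and 10).

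Fibre type moved with time point as well. The score of slow minus fast fibre contractile genes (mean log2 CPM of each list) averaged -1.36 ± 2.16 at T1 and -4.75 ± 0.757 at T0 (SD), an exact two-sided permutation p of 0.00155 (0.00698 adjusted over 9 tests). At T2 it averaged -4.19 ± 0.651, against -1.36 ± 2.16 at T1 (exact permutation p 4.57e-05, adjusted 0.000411), and T2 against T0 gave an adjusted exact permutation p of 0.16. With this score as a covariate, 24 members rose at T2 over T1, all 7 beta ring genes among them, and 17 rose at T2 over T0. Of all genes tested, 10.6% and 6.13% rose in these comparisons. At T1 over T0 this fit called 1 of 11545 genes. The T1 scores ran from -2.88 to 3.48, above the maxima of T2 (-3.04) and T0 (-4.06). With no overlap, this fit cannot tell fibre score and time point apart in comparisons with T1, and no conclusion is drawn from them. Fibroblast markers, 7 of 8 listed, summed to 109 to 466 CPM at T0, 79.4 to 231 CPM at T1 and 103 to 344 CPM at T2. Endothelial markers, 6 of 8 listed, summed to 194 to 294 CPM, 164 to 237 CPM and 141 to 228 CPM at the same stages. Adipocyte markers, 2 of 5 listed, summed to 46.5 to 131 CPM, 49.2 to 140 CPM and 85.5 to 204 CPM. All 7 fibroblast markers had negative log2 fold changes at T1 over T0 (median -0.82) and T2 over T0 (median -0.70). At T2 over T1 all 7 were positive (median 0.42). Only DCN and COL3A1 passed, both lower at T1 against T0 (28.6% of the list, beside 3.34% of all genes tested). All 6 endothelial markers were negative at T2 over T0 (median -0.34), and none passed in any comparison. Of 5 erythroid markers 0 had an identifier, and the part of these cells in the proteasome values was not tested.

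The partners of the proteasome that carry other symbols were taken from a list of 27 symbols, of which 21 had an identifier. At T2 over T1, 9 of the 21 rose and 1 fell, beside 12.6% and 15.1% of all genes tested. At T2 over T0 4 rose and 0 fell, beside 6.73% and 9.3%, and at T1 over T0 0 passed. Their median log2 fold change at T2 over T1 was 0.24. POMP, the maturation factor that guides assembly of the beta ring, had 41.6, 45.0, 51.9, 55.4 and 58.8 CPM in T0, 39.1 to 66.3 with a median of 51.2 CPM in T1, and 55.5 to 82.1 with a median of 73.3 CPM in T2. POMP rose by 0.45 ± 0.11 at T2 over T1 and by 0.49 ± 0.12 at T2 over T0 (SE, log2, edgeR adjusted p 0.00311 and 0.0119). The first call was present in every alternative and the second in 35 of 36.

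TXNL1, a thioredoxin-like protein bound to the regulatory particle, rose by 0.65 ± 0.09 at T2 over T1 (SE, log2, edgeR adjusted p 3.24e-05), with T2 at 76.0 to 107.1 CPM and T1 at 52.5 to 64.5 CPM. UBQLN1, which carries ubiquitinated proteins to the proteasome, rose by 0.45 ± 0.08 at T2 over T1 (adjusted p 0.000358). AKIRIN2, known in human cells for the import of proteasomes into the nucleus, had 11.1, 11.8, 11.9, 14.7 and 15.3 CPM in T0, 12.6 to 24.2 with a median of 17.6 CPM in T1, and 18.1 to 24.9 with a median of 21.3 CPM in T2. Every T2 library of AKIRIN2 was above every T0 library, and it rose by 0.71 ± 0.13 at T2 over T0 (SE, log2, edgeR adjusted p 0.00291).

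NFE2L1, a transcription factor that drives proteasome genes when proteasome activity is short, was the partner that went down. It had 49.3, 51.7, 60.2, 70.5 and 83.3 CPM in T0, 59.2 to 84.0 with a median of 71.3 CPM in T1, and 40.4 to 73.5 with a median of 53.1 CPM in T2. Its ranges overlapped, and it fell by 0.39 ± 0.11 at T2 against T1 (SE, log2, edgeR adjusted p 0.0107) in the fit of all libraries and in each of the 36 alternatives. NGLY1, the enzyme that removes sugars from the NFE2L1 protein, rose by 0.38 ± 0.09 at T2 over T1 (adjusted p 0.00272).

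**Figure D5:**
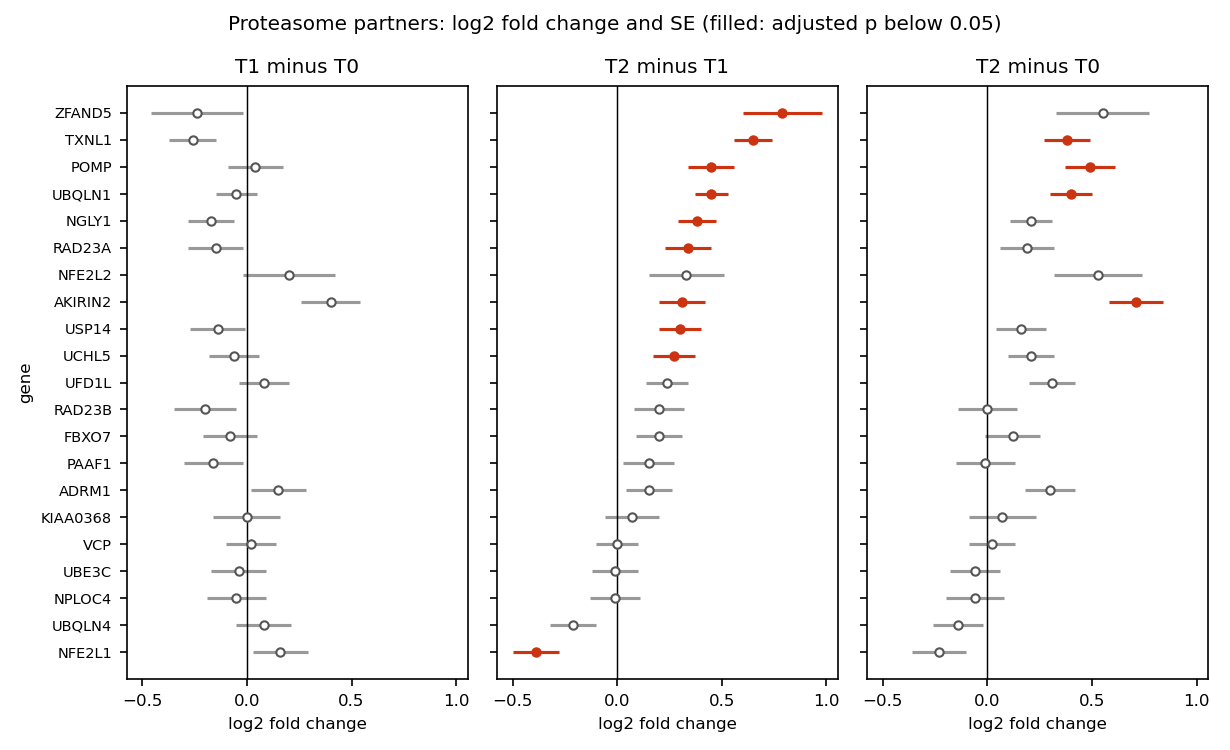
Log2 fold change with its SE for the 21 proteasome partners with an identifier, in the comparisons T1 minus T0, T2 minus T1 and T2 minus T0, ordered by the middle panel; filled points passed an adjusted p of 0.05. In the middle panel 9 filled points lie right of 0 and NFE2L1, at -0.39, is the filled point on the left.

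Upstream of the proteasome, genes for ubiquitin and its activating enzymes (5 of 6 listed) did not pass in any comparison, with a median of 0.30 at T2 over T1 and 0.34 at T2 over T0. Among 14 ubiquitin ligases linked to muscle atrophy, 1 rose and 5 fell at T2 against T1 (12.6% and 15.1% of all genes tested), and 0 rose and 4 fell at T2 against T0 (6.73% and 9.3%). Of these ligases only TRIM32 changed at T1 against T0, where it fell by 0.75 ± 0.20 (SE, log2, edgeR adjusted p 0.0233). That is 7.14% of the list, beside 3.34% of all genes tested that fell. The TRIM32 call was lost under 3 alternatives. These were without m12 (edgeR adjusted p 0.0519), without m3 and m12 (adjusted p 0.0801) and with the fibre score (-0.34, adjusted p 0.655). TRIM63, a muscle ligase of contractile proteins, had 24.7, 44.4, 47.6, 53.2 and 64.1 CPM in T0, 43.5 to 101.4 with a median of 44.9 CPM in T1, and 42.9 to 252 with a median of 70.3 CPM in T2. Libraries m14 and m21 of T2, at 225.6 and 252 CPM, were far above the rest. TRIM63 rose by 0.95 ± 0.34 at T2 over T1 (SE, log2, edgeR adjusted p 0.0422), a call lost under 15 alternatives, with 0.74 and an adjusted p of 0.0874 without m14 and 0.69 and 0.0931 without m21. The other losses from a single library came without m1, m2, m3, m4, m5, m7, m11 or m15.

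FBXO32, the other classical atrophy ligase, had 36.1, 48.9, 59.4, 60.2 and 75.1 CPM in T0, 52.4 to 116.7 with a median of 74.8 CPM in T1, and 13.2 to 133.9 with a median of 54.4 CPM in T2. It spread widely at T2 and passed in no comparison (T2 over T1 -0.38 ± 0.29, SE, log2, edgeR adjusted p 0.331). FBXO40 and FBXO30 fell at T2 against T1, by 0.59 ± 0.13 and by 0.69 ± 0.16 (SE, log2, edgeR adjusted p 0.00122 and 0.00271). HUWE1 and UBR2, large ligases of unfolded and short-lived proteins, fell at T2 against T1 by 0.48 ± 0.11 and by 0.43 ± 0.14 (adjusted p 0.00334 and 0.0216), and at T2 against T0 by 0.43 ± 0.13 and by 0.53 ± 0.16 (adjusted p 0.0276 and 0.0238). Both T2 against T0 calls were lost without m10 or m13, and that of HUWE1 also without m9. FBXO21 and MDM2 fell at T2 against T0 by 0.38 ± 0.12 and by 0.37 ± 0.12 (SE, log2, edgeR adjusted p 0.0329 and 0.0381), and these calls were lost under 9 and 16 alternatives. Without m13 their adjusted p-values were 0.124 and 0.166. The call of UBR2 at T2 against T1 was lost without m7 (adjusted p 0.0533).

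Genes of interferon response and antigen presentation, 17 of 22 listed, included PDIA3, a chaperone of antigen loading, which rose at T2 against T1, and NLRC5, which fell at T2 against T0. NLRC5, an activator of antigen presentation genes, fell by 0.80 ± 0.17 at T2 against T0 (SE, log2, edgeR adjusted p 0.00487). The PDIA3 call is 5.88% of the list, beside 12.6% of all genes tested that rose at T2 over T1. The NLRC5 call is 5.88%, beside 9.3% of all genes tested that fell at T2 against T0. Calpains, caspases and lysosomal proteases, 16 of 19 listed, gave 3 higher at T2 over T1 (CAPNS1, CTSA and CTSH) and 1 lower at T1 against T0 (CTSK). The CTSH call was lost under 15 alternatives and the CTSK call under 5, among them leaving out m8, m9 or m10. Autophagy genes, 21 of 23 listed, gave 3 higher (ATG9A, ATG3 and MAP1LC3A) and 3 lower (WIPI1, NBR1 and ATG13) at T2 against T1. The autophagy counts are 14.3% each way and the protease count at T2 over T1 is 18.8%, beside 12.6% higher and 15.1% lower over all genes tested. At T1 over T0 WIPI1 rose by 0.77 ± 0.12 (SE, log2, edgeR adjusted p 0.00108) and BNIP3L fell by 0.62 ± 0.17 (adjusted p 0.0266). Each is 4.76% of the autophagy list and CTSK is 6.25% of the proteases, beside 3.57% higher and 3.34% lower over all genes tested. The BNIP3L call was lost without m8, m10, m11 or m12. Medians over these lists at T2 over T1 were -0.07 for interferon genes, 0.13 for the proteases and 0.02 for autophagy, beside 0.26 for the proteasome members.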

How the data were processed

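RNA of 23 gluteus medius libraries (single-end, 50 cycles, 6 technical repetitions, per the series' design text) was prepared with a kit that does not mark strand, so overlapping genes cannot be told apart. The sources used here do not state how repetitions were pooled, the genome build or any version. Expected counts fill the deposited tables of genes and transcripts and are whole numbers in the files. The submitters' processing notes name FastQC, STAR, RSEM and DESeq2. The authors' deposited comparison tables also hold a signal column (mean normalized count), log2 fold changes with their errors, a score (Wald statistic) and p-values. Those values were not used, because the letters that name the groups are not tied to time points in the labels. The tables served only for identifiers (9628, of them 8842 with a symbol), biotype and coordinates.

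Genes were kept by filterByExpr (minimum count 10, minimum total 15), which left 11545 genes with 99.93% of counts. After TMM scaling, 1 model of 3 time points was fitted to all libraries with edgeR 4.0.16 in R 4.3.3 (robust quasi-likelihood F test). P-values were adjusted by Benjamini-Hochberg over all genes, with a threshold of 0.05. The SE is the absolute log2 fold change divided by the square root of F, and log2 CPM used a prior count of 2. The fit was tested on simulated data. Library values were compared by exact permutation tests (SciPy 1.17.1), adjusted over 9 tests. The 36 alternatives were 13 fits with another scaling, filter, tool (DESeq2 1.42.0, limma 3.58.1), covariate, sva 3.50.0 or set of libraries, and 23 fits that leave out a library each. Scaling by nuclear totals alone was chosen after seeing the data.

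Members and lists were chosen with earlier results of these data known. Full values are given for members called in a comparison (up to the 12 smallest p-values) and for PSMB5, PSMB8, PSMB9, PSMB10, PSMC4, PSMD11, PSMD14, PSME1, PSME2, PSME4, PSMF1 and PSMG1. Of each pathway list up to 4 called genes a comparison are named, with NFE2L1, FBXO32 and TRIM63, and a marker or gene named beyond these was chosen after its values were seen. One result of the interferon list is not reported here. No 2 libraries held identical counts.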

Additional observations from a re-analysis of the deposited data

Results flagged for a closer look

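Among the 28 members called in a comparison or set for full values, 84 groups of libraries were searched for a value far from the rest (gap to the nearest library over the whole range, Dixon's 95% limit), and 23 had one. Chance gives this in about 1 in 20 groups, and the groups share their libraries. In 17 of the 23 the outlying library was m3, the highest of T1. In the alpha ring m3 had 70.1 CPM of PSMA3 (next 54.5), 54.4 of PSMA5 (next 35.9), 93.9 of PSMA6 (next 66.2) and 151.8 of PSMA7 (next 104.2). In the beta ring m3 had 87.0 CPM of PSMB1 (next 59.7), 61.1 of PSMB2 (next 42.8), 38.2 of PSMB3 (next 28.4) and 71.8 of PSMB4 (next 42.1). Of the immunoproteasome m3 had 12.9 CPM of PSMB8 (next 7.81) and 9.90 of PSMB10 (next 7.11). Among the ATPases it had 103.7 CPM of PSMC1 (next 80.7), 48.4 of PSMC4 (next 33.5) and 42.8 of PSMC6 (next 31.0). It had 35.6 CPM of PSME1 (next 21.2), 22.5 of PSMF1 (next 18.03), 14.5 of PSMG1 (next 9.37) and 43.8 of PSMG4 (next 27.5).

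In 4 groups the outlying library was m12, the highest of T0, with 57.8 CPM of PSMB1 (next 46.3), 35.8 of PSMC6 (next 25.7), 22.2 of PSME1 (next 17.2) and 25.4 of PSMF1 (next 15.7). PSMD3 was lowest in m1 of T1, at 36.4 CPM (next 42.3). PSMD11 was highest in m6 of T1, at 49.4 CPM (next 40.02). PSMA4 was not among these genes: m3 had 36.5 CPM of it, inside the range of the other T1 libraries.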

How the results depend on the processing

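No paired analysis was possible because no label tells which libraries, if any, came from the same horse. At T2 over T1 the count of members called was 10, against 18 with DESeq2, 25 with limma voom and 24 with the fibre score. It was 27 without m3 and m12, 22 with 1 surrogate variable, 19 with nuclear totals and 8 to 26 when 1 library was left out. The share of all genes tested that rose was 12.6%, against 14.3% with DESeq2, 18.4% with limma voom and 14.7% with 1 surrogate variable. This share was also higher without m3 and m12, and it was 16.1% without m3 alone. With the fibre score the share was 10.6% and with nuclear totals 10.9%, so it fell where the member count rose. At T2 over T0 the count of members called was 18, against 28 without m3 and m12 and 8 with nuclear totals. It was 8 to 23 when 1 library was left out. The share of all genes tested that rose was 6.73%, against 13% without m3 and m12 and 1.74% with nuclear totals. This share was 2.62% without m13 and 9.84% without m3. At T1 over T0 the count of members called was 1, against 2 with DESeq2 and 0 with only those 2 time points in the fit. With the fibre score it was 0, and when 1 library was left out it was 0 to 1. Of all genes tested, 3.57% rose, against 5.63% with DESeq2, 2.77% with only those 2 time points and 0.0% with the fibre score. This share was 1.75% to 3.95% when 1 library was left out. Over all genes, T1 over T0 gave 798 calls, against 1476 with limma voom and 1 with the fibre score, and 346 (without m10) to 904 when 1 library was left out. T2 over T0 gave 1851 calls, against 2921 with limma voom, 2947 without m3 and m12 and 1017 with nuclear totals, and 986 (without m13) to 2414 when 1 library was left out, with 1075 without m9. T2 over T1 gave 3188 calls and 2665 to 3775 when 1 library was left out. The cause of these changes was not tested.

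Of the called members, 7 of 10 at T2 over T1 (PSMA3, PSMA4, PSMA5, PSMA6, PSMD6, PSMD7 and PSMD14) and 4 of 18 at T2 over T0 were called in every alternative, and none changed sign. PSMG4 at T1 over T0 was lost under 3. In the transcript table, with 1 transcript a member, 1, 9 and 15 of 41 members rose at T1 over T0, T2 over T1 and T2 over T0, and 0 fell. Of all 12334 transcripts tested, 338, 1378 and 684 rose. Of the members that were not called, 31 of 40, 7 of 31 and 3 of 23 changed sign under some alternative in the same comparisons.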

Other observations

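The 41 genes lie on 21 chromosomes in the coordinates of the authors' tables, for which no source used here states a genome build. The closest neighbours are the activator genes PSME1 (chromosome 1, 162045426 to 162046386) and PSME2 (162049982 to 162053202), 3595 bases apart. At T2 over T1 PSME2 rose by 0.30 ± 0.11 (SE, log2, edgeR adjusted p 0.0394), beside 0.12 ± 0.14 for PSME1. The immunoproteasome genes PSMB8 (chromosome 20, 33417997 to 33420793) and PSMB9 (33430010 to 33434983) lie 9216 bases apart, and their T2 over T0 values were -0.21 ± 0.16 and 0.20 ± 0.21 (SE, log2), with neither past the test. The difference between the neighbours was not tested in either pair.

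Adding up counts of each role as a share of all counts on the 40 proteasome genes gives a composition that does not depend on scaling. The core chaperones averaged 1.94% ± 0.297 at T0, 2.41% ± 0.351 at T1 and 2.12% ± 0.146 at T2. Base scaffold genes (PSMD1 and PSMD2) averaged 12.2% ± 0.896, 12.3% ± 1.1 and 11.1% ± 0.861 at the same stages. Activators averaged 10.2% ± 1.63, 11.8% ± 2.27 and 9.56% ± 1.47, and a higher share of any role lowers those of the others. The lid averaged 20% ± 0.67, 19.9% ± 0.855 and 20.3% ± 0.596 (SD, n = 5, 8 and 10).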
